A study of Rattus norvegicus with 24 samples.

Results

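The genes described here are 8 genes known from thalamic neurons: Tcf7l2, Lef1, Gbx2, Rora, Zic1, Prkcd, Slc17a6 and Ntng1. They were found by name among the 26641 loci with a gene name, of 42334 loci in all. Each of the 8 had a locus, and for Prkcd, the name of 2 loci, the locus with the higher mean was taken. They were described in 4 groups of 6 libraries, cut from the cortex around the lesion and from the thalamus on the same side, in rats with traumatic brain injury (TBI) and in sham-operated rats.

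The thalamus relays sensory and motor signals to the cortex, and most of its projection neurons are glutamatergic and load their vesicles with the glutamate transporter VGLUT2, the product of Slc17a6. Cortical projection neurons mostly use another member of that family, VGLUT1, the product of Slc17a7. Thalamic neurons take their identity from transcription factors that stay on after birth. Tcf7l2 and Lef1 encode related DNA-binding proteins that recruit beta-catenin, Gbx2 encodes a homeobox protein, Rora a nuclear receptor and Zic1 a zinc-finger protein. Prkcd encodes protein kinase C delta, a kinase abundant in relay neurons. Ntng1 encodes netrin-G1, a lipid-anchored adhesion protein of thalamocortical axons. Several of these genes are also active outside thalamic neurons: Tcf7l2 in newly formed oligodendrocytes, Lef1 in brain endothelium and Zic1 in meningeal cells.

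The rats were adult male Sprague-Dawley rats, examined 3 months after lateral fluid-percussion injury (TBI) or after a sham operation without the impact. The sequenced TBI rats had been picked for a chronic inflammatory appearance on imaging, so they do not stand for all injured rats. Both tissues were cut from 1 coronal slice of each rat, giving 24 polyadenylated RNA libraries from 12 rats, and the cut pieces hold all cell types and all thalamic nuclei that lay in them.

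The deposited values are fragment counts per locus divided by a size factor of the library, and are called normalized counts. The libraries held 30568927 to 54608922 fragments. The highest floor, the value of 3 fragments, was 3.76 normalized counts, and floors and counting intervals cover counting error only. Differences were tested with limma, after log2 transformation of the normalized count plus 1. Loci whose mean over the compared libraries was under 10 were left out, and differences were called at a Benjamini-Hochberg adjusted p under 0.05 over all loci tested. A log2 difference of this kind understates the change of low genes. Means are followed by the SD over 6 rats. No exon lengths were used, so levels are compared between groups and not between genes. Sums of gene lists, and a gene's share of such a sum, weigh genes by their counts and do not rank their levels. Choroid plexus transcripts varied widely within every group, and were highest in rat 50 in sham thalamus, rat 45 in TBI thalamus and TBI cortex, and rat 26 in sham cortex.

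Promoter windows of 7 of the 8 genes, from 250 bases before to 50 bases after the annotated start, were taken from RefSeq (build GRCr8), which is another build than that of the count table. Zic1 was not matched. The windows were searched on both strands for CTTTGAT and CTTTGAA, forms of the site that TCF and LEF proteins such as Tcf7l2 and Lef1 bind. CTTTGAT was found in 1 of the 7 windows, that of Slc17a6, and in 3.63% of all 33469 promoter windows. CTTTGAA was found in none of the 7 and in 5.4% of all windows. TAGGTCA and AAGGTCA, forms of the site of nuclear receptors like Rora, were found in none of the 7, and in 2.63% and 4.61% of all. The windows of 3 genes are shown 5′ to 3′, that of Tcf7l2 as the TCF factor of the set, that of Slc17a6 for its match, in capitals, and that of Prkcd as the gene with the largest thalamic fall of the 8.
Tcf7l2, chr1:264791085-264791384, plus strand: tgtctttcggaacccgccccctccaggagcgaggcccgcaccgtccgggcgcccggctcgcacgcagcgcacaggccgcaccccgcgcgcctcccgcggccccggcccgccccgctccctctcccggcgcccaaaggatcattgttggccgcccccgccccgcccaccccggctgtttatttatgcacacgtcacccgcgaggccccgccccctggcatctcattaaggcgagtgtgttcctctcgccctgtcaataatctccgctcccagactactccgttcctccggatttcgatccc
Slc17a6, chr1:110348197-110348496, plus strand: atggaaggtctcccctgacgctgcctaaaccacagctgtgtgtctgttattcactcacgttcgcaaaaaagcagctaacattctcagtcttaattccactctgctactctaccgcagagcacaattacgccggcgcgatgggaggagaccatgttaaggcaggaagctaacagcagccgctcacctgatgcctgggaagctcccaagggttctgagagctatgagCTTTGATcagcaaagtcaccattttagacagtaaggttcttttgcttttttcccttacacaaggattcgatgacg
Prkcd, chr16:5805790-5806089, minus strand: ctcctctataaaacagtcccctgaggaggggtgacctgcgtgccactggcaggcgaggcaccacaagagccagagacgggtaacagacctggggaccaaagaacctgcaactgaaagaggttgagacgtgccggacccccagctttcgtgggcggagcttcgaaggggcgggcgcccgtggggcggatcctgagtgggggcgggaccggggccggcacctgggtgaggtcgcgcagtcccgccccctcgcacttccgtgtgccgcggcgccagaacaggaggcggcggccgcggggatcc
The match in Slc17a6 starts 25 bases before the annotated start, and is a match of letters and no measured binding. G and C made up 70.3%, 49% and 69% of these windows in that order.

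The first comparison asked whether the 8 genes stood higher in the thalamus than in the cortex, as their name implies. All 8 did, in both conditions. In sham-operated rats 8 of 8 were called higher in the thalamus, against 33.9% of the 15582 loci tested, and 8 of 8 had no overlap between the regions, against 23.9% of loci. In TBI rats the same counts were 8 of 8 against 31% of 15737 loci called higher, and 8 of 8 against 19.5% with no overlap. The median log2 difference over the 8 genes was 4.40 in sham and 4.07 in TBI rats, and that over all loci tested was 0.03 in both.

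Among the transcription factors, Gbx2 came closest to being absent from the cortex. This gene (chromosome 9, 96754120 to 96756543 in the positions of the deposited annotation) had 0 fragments in 4 of the 6 sham cortex libraries and 3 fragments in all in the other two. In TBI cortex it had 5 fragments in rat 22, 7 in rat 24 and 0 in the other four. In the thalamus its normalized count ran from 617 to 943 in sham rats, with a median of 724, and from 657 to 1085 in TBI rats, with a median of 834. Its pooled fragments, divided by the summed size factors of the libraries, were 1446 times as many in sham thalamus as in sham cortex. The exact 95% counting interval of that ratio was 494 to 7014. In TBI rats the ratio was 479, with an interval of 274 to 928, and the interval of the TBI to sham ratio in the cortex, 0.927 to 19.0, included 1.

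Tcf7l2 (chromosome 1, 284050317 to 284118931) had normalized counts of 185 to 264 in sham cortex, median 203, and of 11268 to 15813 in sham thalamus, median 12722. The lowest thalamic rat was far above the highest cortical rat, and the log2 difference was 5.94 (standard error 0.0936, adjusted p = 3.92e-16). In TBI rats it was 5.25 (standard error 0.0697, adjusted p = 1.28e-15). Lef1 (chromosome 2, 254781129 to 254893830) had 305 to 416 in sham cortex, median 333, and 3728 to 5993 in sham thalamus, median 4612. Its log2 difference was 3.74 in sham and 3.06 in TBI rats, so both TCF/LEF genes were thalamic in either condition.

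Zic1 (chromosome 8, 98222959 to 98253680) had normalized counts of 447 to 721 in sham cortex, median 520, and of 7906 to 12419 in sham thalamus, median 8726. The log2 difference was 4.12 in sham and 3.34 in TBI rats. Rora (chromosome 8, 79750704 to 79943733) had the smallest regional difference of the 8 genes. It lay between 1212 and 1517 in sham cortex, median 1352, and between 3377 and 7674 in sham thalamus, median 4586. Its thalamic mean was 3.62 times the cortical mean in sham and 3.03 times in TBI rats, and the groups still did not overlap.

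The effector genes followed the same order of regions. Prkcd (chromosome 16, 6588805 to 6617695) had normalized counts of 908 to 1183 in sham cortex, median 1148, and of 30458 to 46532 in sham thalamus, median 36846, a ratio of means of 35.6. Slc17a6 (chromosome 1, 108040510 to 108081168) had 894 to 1278 in sham cortex, median 1005, and 23823 to 29859 in sham thalamus, median 26202, a ratio of means of 25.5. Ntng1 (chromosome 2, 232162554 to 232541610) had 875 to 1156 in sham cortex, median 969, and 14129 to 20687 in sham thalamus, median 17414, a ratio of means of 17.4. Rora was at the 95.9th percentile of the log2 region difference over all loci in sham rats, and the other 7 genes lay at or above the 98.8th percentile. The submitters' notes name Rnor_5.0 and the methods RGSC3.4, so these positions are given as listed, without a build.

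**Figure D1:**
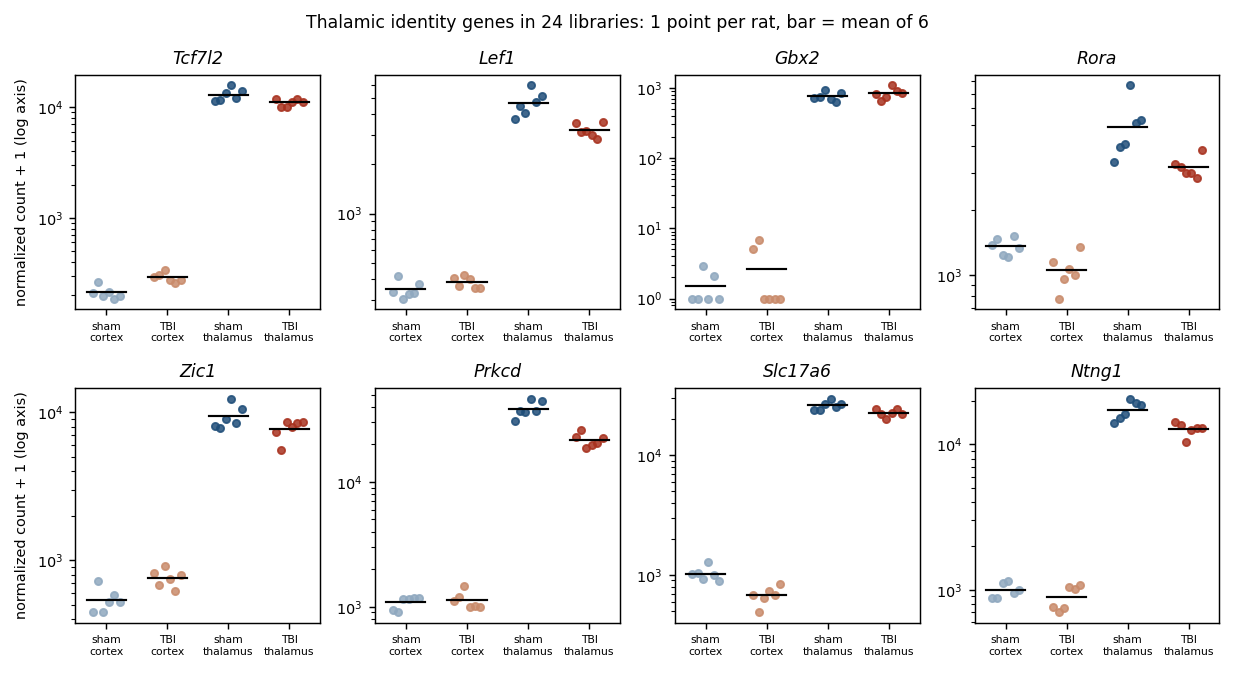
Normalized count plus 1 on a log axis for each of the 8 genes in sham cortex, TBI cortex, sham thalamus and TBI thalamus, with 1 point per rat and a bar at the mean of 6 rats. For every gene the 12 thalamus points lie above the 12 cortex points, with the smallest gap at Rora and the largest at Gbx2, whose sham cortex points hold 3 fragments in all.

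Other lists of genes fit the labels of the tissues. Of 25 tested genes of a list of other thalamic neuron genes, 23 were higher in sham thalamus than in sham cortex and 1 was lower, with a median log2 difference of 2.79. Of 10 tested genes of cortical projection neurons and forebrain patterning, 9 were lower and none was higher, with a median of -4.75. Of all 15582 loci tested in that comparison, 5278 were higher and 4415 lower. The summed level of the cortical list in the thalamus ran from 16641 to 26429 in sham and from 11744 to 15704 in TBI rats, against 97991 to 103592 in sham cortex. The thalamus libraries thus held transcripts of that list at a lower level in TBI rats, without overlap between the groups.

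The second comparison asked what TBI did to the 8 genes in the thalamus. Of them 6 were lower in TBI rats, none was higher, and Zic1 and Gbx2 did not pass the test. Prkcd fell most, to 56.4% of the sham mean, followed by Rora, Lef1 and Ntng1 at 64.9% to 74% and Tcf7l2 and Slc17a6 at 84.9% and 86.4%. The share of all 15564 loci that was lower in TBI thalamus was 20.9%, and 14.5% were higher. The split of all calls, 2259 higher and 3257 lower, turned to 2828 and 2321 with TMM scaling, where 4 of the 8 genes were lower. In a piece of tissue, fewer cells of a type and less RNA per cell cannot be told apart.

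Prkcd had normalized counts of 18547 to 26164 in TBI thalamus, median 21481, below all 6 sham rats, whose lowest value was 30458. The means were 38538 ± 5924 in sham and 21747 ± 2738 in TBI rats, and the log2 fold change was -0.82 (standard error 0.104, adjusted p = 4.4e-05). It was at the 1.3th percentile of the log2 fold change over all loci tested. The second locus named Prkcd has the same listed position and held 0.128% to 0.241% of the count of the first in the thalamus libraries, so the choice of locus bore little on the level.

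Lef1 had 2821 to 3591 in TBI thalamus, median 3150, and the lowest sham rat had 3728. The means were 4696 ± 809 in sham and 3210 ± 304 in TBI rats, with a log2 fold change of -0.54 (standard error 0.101, adjusted p = 0.000934). Prkcd and Lef1 were the 2 of the 8 genes whose groups did not overlap in the thalamus, and 10.7% of all loci were lower in TBI rats without overlap.

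Rora had 2844 to 3830 in TBI thalamus, median 3094, and 5 of the 6 TBI rats lay below the lowest sham rat. Its means were 4912 ± 1536 in sham and 3188 ± 353 in TBI rats, and the log2 fold change was -0.58 (standard error 0.155, adjusted p = 0.01). The sham rats were the more spread, with a coefficient of variation of 31.3% against 11.1% in TBI rats, and rat 38 alone stood at 7674. Ntng1 had 10372 to 14296 in TBI thalamus, median 12969, with 5 of the 6 TBI rats below the lowest sham rat. Its means were 17311 ± 2550 and 12809 ± 1346, a log2 fold change of -0.43 (standard error 0.0972, adjusted p = 0.00355).

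Tcf7l2 and Slc17a6 changed least of the called genes. Tcf7l2 had 10080 to 11821 in TBI thalamus, median 11261, with 4 of the 6 TBI rats below the lowest sham rat and a log2 fold change of -0.23 (standard error 0.0807, adjusted p = 0.0391). Slc17a6 had 19974 to 24435, median 22357, also with 4 of the 6 below the lowest sham rat, and a log2 fold change of -0.21 (standard error 0.0659, adjusted p = 0.0226). Neither call held with TMM scaling (adjusted p = 0.0963 and 0.0687) or with upper quartile scaling (0.139 and 0.123). Without rats 50 and 45, the thalamus libraries richest in choroid plexus transcripts, the log2 fold changes were -0.22 for Tcf7l2 (adjusted p = 0.0737) and -0.18 for Slc17a6 (adjusted p = 0.0625), close to those of all 12 libraries but from fewer rats, and Prkcd, Lef1, Ntng1 and Rora stayed lower. Over all 12 omissions of 1 library, the adjusted p ranged from 0.0203 to 0.0891 for Tcf7l2 and from 0.0148 to 0.0512 for Slc17a6.

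Zic1 had 5529 to 8636 in TBI thalamus, median 8269, and 7906 to 12419 in sham thalamus. Its log2 fold change was -0.27 with a 95% interval of -0.54 to -0.00135 and an adjusted p of 0.11, and 6 of the 6 TBI rats lay below the sham mean. Gbx2 had means of 754 ± 117 in sham and 840 ± 148 in TBI rats, with a log2 fold change of 0.15, an interval of -0.11 to 0.41 and an adjusted p of 0.356. For Gbx2, 2 of the 6 TBI rats lay below the sham mean and the highest of all 12 was TBI rat 52. Its interval reached from a small fall to a rise by about the size of the Ntng1 fall, so this test does not show that the level stayed as it was.

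**Figure D2:**
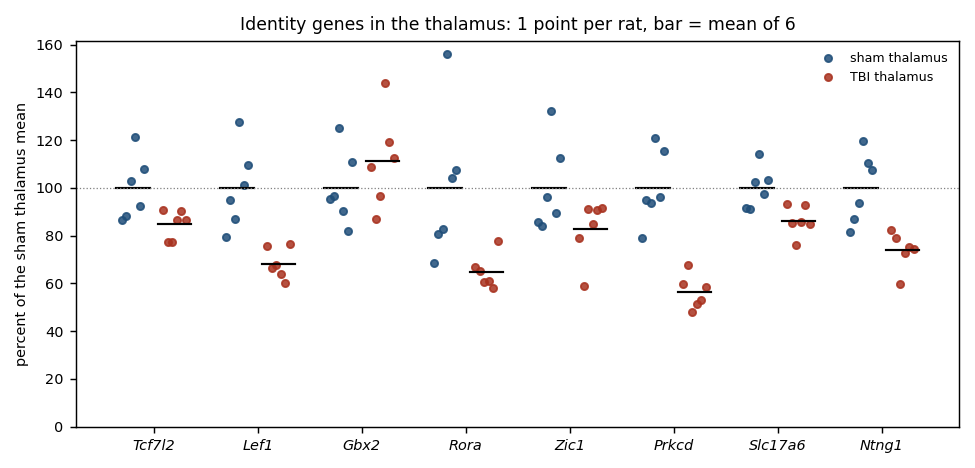
Normalized count of each of the 8 genes in the thalamus as a percentage of the sham thalamus mean (y axis from 0), with 1 point per rat and a bar at the mean of 6 sham (left) and 6 TBI rats (right). The TBI means run from 56.4% for Prkcd to 86.4% for Slc17a6 among the 6 called genes, and stand at 82.7% for Zic1 and 111% for Gbx2.

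The rats differed among themselves in a way that most of the genes shared. In sham thalamus rat 38 had the highest value for 7 of the 8 genes, all but Gbx2, and rat 26 had the lowest for 5 of 8. In TBI thalamus no rat held more than 3 of the 8 highest or lowest values. The sum of the 8 genes ran from 95692 in rat 26 to 139659 in rat 38 among sham rats and from 74432 in rat 45 to 88628 in rat 22 among TBI rats. Rat 26 also had the highest sum of the list of reticular nucleus genes among sham rats, 41193 where the median was 25574. Rat 45 had the lowest sum of that list, 7677, and the highest sum of the habenula list, 9883. The part of these differences in the 6 calls was not tested, and leaving out either rat kept 5 or 6 genes called lower.

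The lower values of the 6 called genes stood beside lower values of most neuronal transcripts measured. Of 15 genes of neurons of any region, 12 were lower in TBI thalamus, none was higher, and the median log2 fold change was -0.43, where the 8 identity genes had -0.35 and all loci -0.02. Nefm and Nefl, subunits of neurofilaments, fell most of them, Nefm from 14021 ± 1527 to 6898 ± 626 and Nefl from 31502 ± 3379 to 19590 ± 1531. Nefm is the name of 2 loci, and the locus with the higher mean, taken here, had a log2 fold change of -1.02. The other locus fell less, from 1990 ± 127 to 1675 ± 61.3, a log2 fold change of -0.25. The summed level of the neuronal list ran from 371742 to 443113 in sham and from 254574 to 320608 in TBI thalamus, without overlap.

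When each library was scaled to the mean log2 level of that neuronal list, the order of the 8 genes was kept but the zero point moved, and the median of all loci moved from -0.02 to 0.39. On that scale 11110 of the 15564 loci tested were called higher in TBI thalamus and 289 lower. Prkcd was among the lower ones, with a log2 fold change of -0.40 (adjusted p = 0.00179). Tcf7l2 (0.19, adjusted p = 0.0123), Slc17a6 (0.21, adjusted p = 0.00364) and Gbx2 (0.57, adjusted p = 0.000614) were among the higher ones. The values of Tcf7l2 and Slc17a6 lay under the median of all loci on that scale. The values of Lef1 (-0.12), Rora (-0.16), Ntng1 (-0.01) and Zic1 (0.15) did not pass the test there. Relative to the median of all loci, the log2 fold change of Prkcd was -0.80 and that of Tcf7l2 -0.20 on this scale, and -0.80 and -0.21 on the deposited scale. Prkcd was thus lower than the neuronal list as well, and Tcf7l2, Slc17a6 and Gbx2 fell less than that list or not at all.

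**Figure D3:**
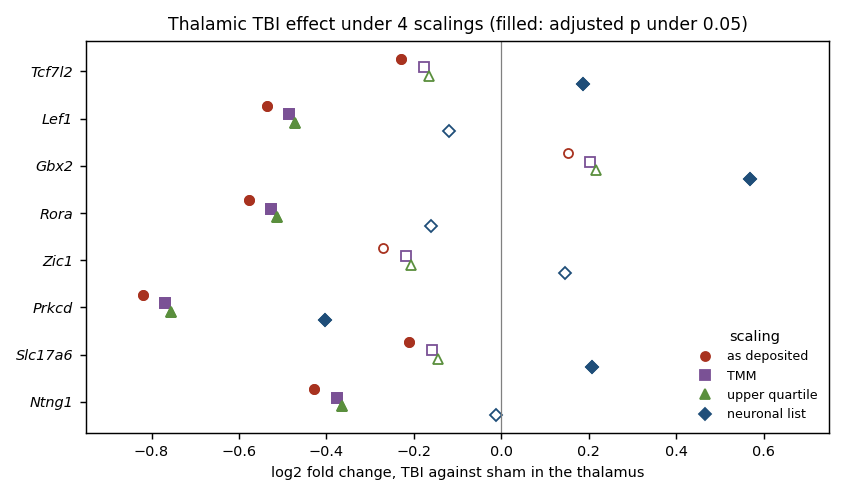
Log2 fold change of TBI against sham in the thalamus for each of the 8 genes under the deposited scaling, TMM, upper quartile scaling and scaling to the neuronal list, with filled symbols at an adjusted p under 0.05. Prkcd lies left of 0 and filled under all 4, from -0.82 to -0.40, while Tcf7l2, Slc17a6 and Zic1 lie left of 0 under the first 3 and right of 0 with the neuronal list.

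Among genes near these in function, the list of other thalamic neuron genes moved alike in count. Of its 25 tested genes 14 were lower in TBI thalamus and 1 was higher, with a median log2 fold change of -0.34. Gabrd and Gabra4, subunits of GABA-A receptors outside synapses, had the lowest values, Gabrd at -1.0 (adjusted p = 7.98e-06) and Gabra4 at -0.83 (adjusted p = 4.63e-05), both without overlap. Calb2, which encodes calretinin and marks midline neurons, had 0.33 (adjusted p = 0.0785), and Tnnt1 0.88 (adjusted p = 0.249). The 2 highest values of this list were thus uncalled, and Sox2 was the gene that rose, by 0.24 (adjusted p = 0.0186). The locus taken for Sox2 carries 2 gene names, and Sox2 is the name of 2 loci.

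A list of 8 genes was taken for the thalamic reticular nucleus, a sheet of inhibitory neurons around the relay nuclei. In sham rats 4 of them were higher and 2 lower in the thalamus than in the cortex, with a median of 0.13. The list is therefore not particular to that nucleus. In TBI thalamus it had the lowest median of the neuronal lists, -0.87, with 6 of 8 genes lower and 1 higher. Pvalb, the calcium buffer parvalbumin, went from 6181 ± 927 to 2804 ± 745 (log2 fold change -1.19, adjusted p = 0.000303), and Ecel1 was the gene that rose (0.73, adjusted p = 0.00458). Habenula genes went the other way in value, with a median of 0.78 over 5 genes and none called. Gpr151, an orphan receptor of the habenula, had 228 to 1391 in sham and 563 to 2042 in TBI thalamus, which overlap widely. Of 8 tested cortical genes 4 were lower and none was higher, and Slc17a7 went from 7827 ± 2088 to 3734 ± 829 (-1.05, adjusted p = 0.000642).

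The partners of Tcf7l2 and Lef1 showed no common direction. Of 21 tested genes of the beta-catenin and TCF pathway 3 were higher and 3 lower in TBI thalamus, and their median was -0.02, that of all loci tested. Apcdd1, an inhibitor of the pathway, was at 0.41 (adjusted p = 0.0295) and Pygo1, a coactivator, at -0.26 (adjusted p = 0.0306). Axin2, a feedback inhibitor that many cells switch on when the pathway is active, had -0.02 (adjusted p = 0.885).

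Of 19 tested relatives of the 8 genes, 10 were lower in TBI thalamus and 1 was higher, with a median of -0.17. Prkca, which encodes protein kinase C alpha, was the gene that rose, by 0.33 (adjusted p = 0.00257). Rorb, the relative of Rora, was at -0.48 (adjusted p = 0.000596), and Ntng2, the relative of Ntng1, at -0.18 (adjusted p = 0.203). Zic4, the neighbour and partner of Zic1, was at 0.07 (adjusted p = 0.477).

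Microglial transcripts were higher in TBI thalamus, and those of other cell types differed in how many were called. All 14 microglial genes were called higher, where 14.5% of all loci were, with a median log2 fold change of 1.06, and their sum ran from 15598 to 20518 in sham and from 32499 to 42722 in TBI rats. Of 9 astrocyte genes 5 were higher, of 8 endothelial genes 4, of 8 genes of newly formed oligodendrocytes 3 and of 8 genes of mature oligodendrocytes 1, with none called lower. The summed level of the mature oligodendrocyte list in TBI thalamus was 102% of the sham mean. The values of choroid plexus and meningeal genes spread widely, and none of either list was called higher or lower in the thalamus. The part of these transcripts in the lower values of the 6 called genes was not tested.

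**Figure D4:**
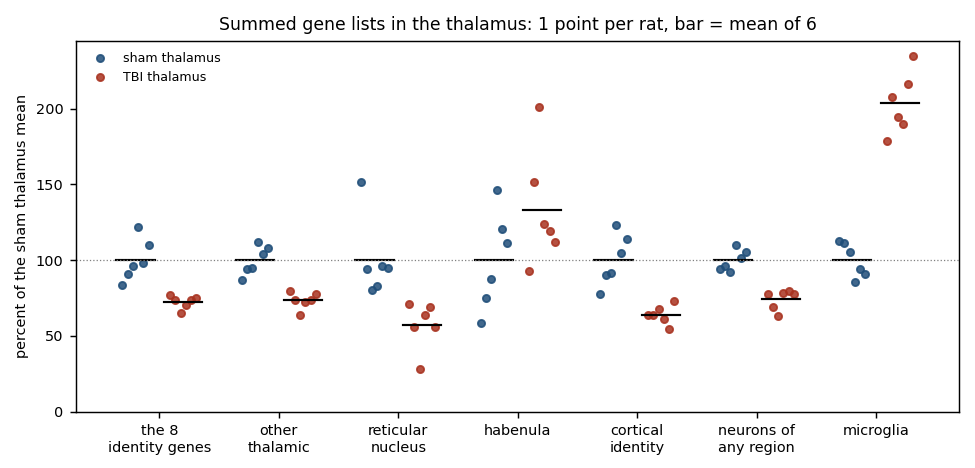
Summed normalized count of 7 gene lists in the thalamus as a percentage of the sham thalamus mean (y axis from 0), with 1 point per rat and a bar at the mean of 6 sham (left) and 6 TBI rats (right). The 8 identity genes stand at 72.5% in TBI rats, near the other thalamic genes (73.4%) and neurons of any region (74.3%), with reticular nucleus genes at 57.4%, habenula genes at 133% and microglial genes at 204%. Such sums weigh genes by their counts. Prkcd, the gene that fell most of the 8, made up on average 33.5% of their sum in sham and 26.1% in TBI thalamus.

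The third comparison asked what TBI did to the same genes in the perilesional cortex, where their levels were low. Of the 7 genes tested there, 2 were higher and 2 were lower, and Gbx2 was under the filter. The shares of all 15493 loci were 14.3% higher and 14.9% lower. Tcf7l2 and Zic1 rose, Slc17a6 and Rora fell, and Prkcd, Lef1 and Ntng1 did not pass the test.

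Tcf7l2 had 256 to 339 in TBI cortex, median 281, and 5 of the 6 TBI rats were above the highest sham rat, which had 264. The means were 211 ± 28.0 in sham and 289 ± 29.0 in TBI rats, and the log2 fold change was 0.46 (standard error 0.0957, adjusted p = 0.00276). Zic1 had 623 to 911 in TBI cortex, median 768, with 4 of the 6 above the highest sham rat, and a log2 fold change of 0.51 (standard error 0.117, adjusted p = 0.00491). Lists of several other cell types moved in TBI cortex, among them those in which Tcf7l2 and Zic1 are known to be active. Of 14 microglial genes 13 were higher and none lower, and of 9 astrocyte genes 5 were higher and 2 lower. Of 7 tested genes of newly formed oligodendrocytes 3 were higher in TBI cortex and none lower, and their sum ran from 13648 to 17568 in sham and from 14764 to 17615 in TBI rats. Of 8 meningeal fibroblast genes 6 were higher, with a median of 0.82 and a sum of 10492 to 16227 in sham and of 15726 to 43472 in TBI rats.

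TBI rat 45, which had the highest sum of that meningeal list in the cortex, also had the highest cortical Tcf7l2, Zic1, Lef1 and Prkcd of the TBI rats. The same rat had the lowest sum of the newly formed oligodendrocyte list among TBI cortex libraries, 14764. Without the cortex libraries of rats 26 and 45, Tcf7l2 stood at 0.41 (adjusted p = 0.0149), Zic1 at 0.40 (adjusted p = 0.0304) and Slc17a6 at -0.59 (adjusted p = 0.00791), and Rora no longer passed at -0.36 (adjusted p = 0.0589). Those libraries were the richest in choroid plexus transcripts, and in sham cortex the highest meningeal sum was that of rat 55. The part of meningeal cells and oligodendrocytes in the rises was not tested.

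Slc17a6 had 491 to 844 in TBI cortex, median 677, and 894 to 1278 in sham cortex, so all 6 TBI rats were below all 6 sham rats. Its log2 fold change was -0.60 (standard error 0.113, adjusted p = 0.00128), at the 0.994th percentile of all loci. Rora had 775 to 1355 in TBI cortex, median 1035, with 5 of the 6 TBI rats below the lowest sham rat and a log2 fold change of -0.38 (standard error 0.107, adjusted p = 0.0142). Slc17a7, the other vesicular glutamate transporter, was at -0.13 in the cortex (adjusted p = 0.0806). Of the 15 neuronal genes 9 were lower in TBI cortex and none was higher, with a median of -0.22.

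Ntng1 had 704 to 1071 in TBI cortex, median 888, and a log2 fold change of -0.17 with a 95% interval of -0.42 to 0.08. Lef1 had 351 to 422, median 383, and 0.15 with an interval of -0.03 to 0.33. Prkcd had 986 to 1477, median 1056, and 0.05 with an interval of -0.17 to 0.27. The 3 genes overlapped between sham and TBI rats, and the Prkcd interval leaves out a fall of the size seen in the thalamus.

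**Figure D5:**
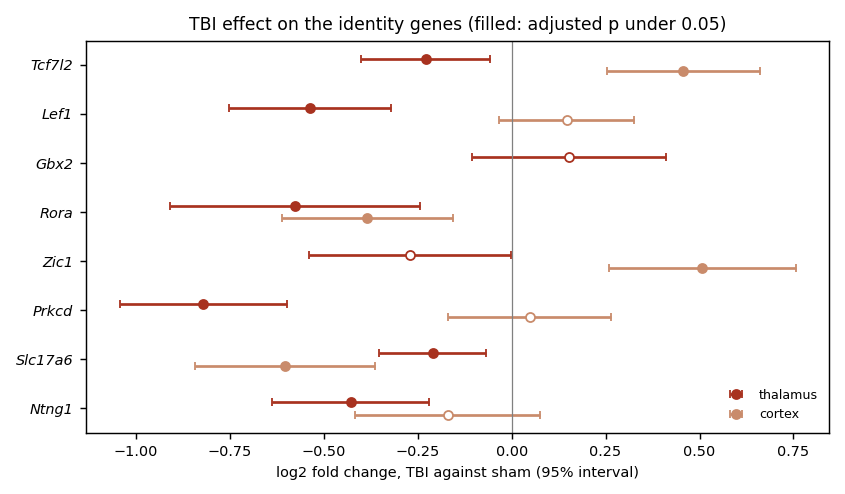
Log2 fold change of TBI against sham with its 95% interval for each of the 8 genes in the thalamus and the cortex, filled at an adjusted p under 0.05. Tcf7l2 and Zic1 lie left of 0 in the thalamus and right of 0 in the cortex, Rora and Slc17a6 lie left of 0 in both, and Gbx2 was tested in the thalamus only.

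The difference between the TBI effects of the regions was tested itself, over all 24 libraries. It was below 0, meaning a lower value in the thalamus, for 4 of the 8 genes, against 4.54% of 15678 loci. Prkcd had the largest difference, -0.87 (standard error 0.152, adjusted p = 0.000917), then Zic1 with -0.78 (standard error 0.181, adjusted p = 0.00965), Tcf7l2 with -0.69 (standard error 0.122, adjusted p = 0.00104) and Lef1 with -0.68 (standard error 0.133, adjusted p = 0.00248). For Tcf7l2 a thalamic fall met a cortical rise, for Zic1 a cortical rise met an uncalled thalamic value, and for Prkcd and Lef1 a thalamic fall met an uncalled cortical value.

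Slc17a6 had a difference of 0.39 in the other direction (standard error 0.135, adjusted p = 0.0782), and with the rat as a block its adjusted p was 0.0492. Ntng1 (-0.26, interval -0.59 to 0.07), Rora (-0.19, interval -0.61 to 0.22) and Gbx2 (-0.26, interval -1.46 to 0.93) did not pass. The Gbx2 value rests on cortex libraries with 7 fragments at most, and its interval is the widest of the 8.

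The loci whose pattern over all 24 libraries was most like the mean z-scored pattern of the 8 genes were Prox1, Plekhg1, RAB37, Akap12 and Grid2ip, with Pearson r of 0.997, 0.996, 0.996, 0.996 and 0.996 over 15678 loci. The step between the regions, which all these libraries share, makes up most of such an r. Prox1, which encodes a homeobox protein, had means of 4036 ± 535 in sham and 3286 ± 420 in TBI thalamus, and 393 and 425 in sham and TBI cortex. RAB37 had 4589 ± 660 and 2634 ± 404 in the thalamus, and 74.3 and 54.2 in the cortex.

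Within the thalamus, after each group's mean was taken off, the pattern of the 8 genes over 12 libraries was nearest to that of Prkg2 (r = 0.966), a second locus named Nefm (0.962), Il12rb2 (0.938), Kcnd2 (0.936) and Ubap2l (0.931). Prkg2 encodes a cGMP-dependent protein kinase and Kcnd2 a potassium channel of A-type currents. The 8 genes themselves ranged from 0.186 for Gbx2 and 0.684 for Zic1 to 0.95 for Tcf7l2 in likeness to their own mean. These r describe 12 libraries that share tissue cutting and depth, and carry no test.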

How the data were processed

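RNA of the perilesional cortex and the thalamus of 12 rats was sequenced as 24 polyadenylated libraries, 6 per group. The authors aligned reads with TopHat2 2.0.11 and Bowtie2 2.2.2 and quantified loci with Cufflinks 2.2.1 and Cuffdiff, as their notes list. The deposited signal is a count of fragments per locus divided by a size factor, and the authors' own comparisons were not used. Fragment counts were recovered from the step size of each deposited column, with 99.97% to 99.99% of values whole within 0.1 fragments. In sham thalamus rat 55 the step was 0.989, too near 1 to tell whole fragments from rounding by a separate check, so that library was left out of the count test but kept in the Gbx2 fragment ratio. Loci without a gene name (15693) held 1.9% to 2.23% of counts and were left out, and no column lacked a sample.

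Each comparison was fitted with limma 3.58.1 (R 4.3.3, trend) on log2(value + 1) for named loci with a mean of at least 10, with Benjamini-Hochberg adjustment over all loci tested and a threshold of 0.05. The regions were compared within sham and within TBI rats, and the difference of the TBI effects in 1 fit of 24 libraries. The fits were checked on simulated data. Both regions came from the same rats, and deviations from the group means correlated with a median r of 0.187 between regions (0.00393 to 0.569, over 0.1 in 10 of 12 rats, 15678 loci). A fit with the rat as a block was therefore an alternative.

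The 8 genes, the other gene lists and the rule for naming list genes were chosen with earlier results of these data known. Named are the 8 genes, of each list the 2 genes with the highest and the 2 with the lowest log2 fold change in the thalamus, and the 5 loci most like the 8 genes over 24 libraries and the 5 over 12 thalamus libraries. Axin2, Rorb, Ntng2, Zic4 and Sox2 fall outside that rule and were chosen after their values were seen. A gene that the rule names is not reported here. Alternatives were TMM, upper quartile and neuronal-list scaling, other filters and pseudocounts, limma-voom, 1 fit of all libraries, the sum of loci of a name, and omission of each library. A count test by edgeR 4.0.16 without rat 55 thalamus, and omission of the library with the most choroid plexus transcripts of each group, were chosen after seeing the data.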

Additional observations from a re-analysis of the deposited data

Results flagged for a closer look

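The value of Tcf7l2 in sham cortex rat 32 stood apart from its group, with 264 normalized counts where the next rat had 212, a gap of 0.656 of the group's range. It was 1 of 32 combinations of gene and group, and chance puts about 1 in 20 groups past that limit. The same library had the highest sums of oligodendrocyte genes in sham cortex. The part of those transcripts in its Tcf7l2 value was not tested.

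The TBI effect differed between the regions for 4 genes, by the test of the difference itself in limma. The difference, thalamus minus cortex, was -0.868 for Prkcd, -0.777 for Zic1, -0.686 for Tcf7l2 and -0.683 for Lef1 on the log2 scale.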

How the results depend on the processing

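Over the alternatives other than omission of 1 library, the fits of the 8 genes kept their direction and side of the threshold in 442 cases, lost a call in 15, gained one in 5 and reversed in 6. These cases pool all 5 comparisons and include the fits between the regions, none of which changed. Of the 6 calls in the thalamus, only that of Prkcd was kept under every one of these alternatives. Prkcd, Lef1, Ntng1 and Rora stayed lower in the thalamus with TMM, with upper quartile scaling and with edgeR, where 4 of the 8 genes were called lower. Scaling to the neuronal list left 1 gene lower in the thalamus, and there Tcf7l2 (0.19), Slc17a6 (0.21), Zic1 (0.15) and Pygo1 (0.15) reversed, as did Ntng1 in the cortex (0.11) and the Gbx2 difference between regions (0.0894). That scaling called 11399 loci in the thalamus against 5516 and 9342 in the cortex against 4531. In the thalamus 11110 were then higher and 289 lower, against 2259 and 3257, and TMM gave 2828 and 2321 and upper quartile scaling 2987 and 1990. In the cortex, upper quartile scaling gave 2900 higher and 1248 lower, and the neuronal list 9177 and 165, against 2223 and 2308. Without the libraries richest in choroid plexus transcripts, 2884 loci were called in the cortex, 607 rather than 1138 differed in TBI effect, and Prkcd in the cortex reversed (-0.0729).

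Leaving out 1 library at a time gave 4 to 6 of the 8 genes lower in the thalamus, 4 to 4 called in the cortex, 8 to 8 higher in the thalamus than in the cortex and 4 to 4 with a lower TBI effect in the thalamus. Loci called ran from 4522 to 5442 in the thalamus, 3671 to 5219 in the cortex, 9333 to 9670 and 8566 to 9154 between regions in sham and TBI rats, and 813 to 1329 for the difference of effects. Tcf7l2 in the thalamus lost its call in 7 of 12 omissions (sham rats 34, 38 and 55, TBI rats 24, 45, 52 and 63) and Slc17a6 without sham rat 55. Prkcd in the cortex ran from -0.0340 to 0.0827 and reversed without sham rat 32 or TBI rat 45, and the Gbx2 difference of effects ran from -0.48 to 0.12 and reversed without TBI cortex rat 22 or 24. The Slc17a6 difference was called without TBI cortex rat 63 (adjusted p = 0.0266).

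With the rat as a block, 1301 loci differed in TBI effect, the Slc17a6 difference was called (adjusted p = 0.0492), and no other call of the 8 genes changed. The causes of these changes were not tested. Depth limits Gbx2 in the cortex, at 3 and 12 fragments per group.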
